A study of Mus musculus with 12 samples.

Results

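The genes described here are 10 genes of dendritic cells, of 53431 rows in the count table, followed in mouse adipose tissue by matching Ensembl identifiers to the symbols Flt3, Zbtb46, Xcr1, Clec9a, Batf3, Irf8, Cd209a, Ccr7, Fscn1 and Siglech. The table holds 12 messenger RNA libraries in 3 groups of 4. Treated libraries came from mice labelled Bbs2-/- that received the glucosylceramide synthase inhibitor Genz-667161 in feed (0.033% by weight) between the ages of 2 and 6 months. Untreated libraries came from mice labelled Bbs2-/- with no treatment, and WT libraries from untreated wild-type mice. All groups were of mixed C57BL/6 x 129/SvJ background with fat collected at 6 months. The labels name neither the Bbs2 allele nor the depot, and do not say whether each numbered sample is a separate mouse. Some of the spread behind the p-values may therefore be technical.

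Dendritic cells take up antigen and present it to T cells. Conventional dendritic cells arise from bone marrow progenitors that need the cytokine receptor Flt3 and later express the transcription factor Zbtb46. They divide into cDC1, which depend on Irf8 and Batf3 and cross-present antigen to CD8 T cells, and cDC2, which mainly prime CD4 T cells. On activation both classes switch on Ccr7 and move to lymph nodes, while plasmacytoid dendritic cells, marked in mice by Siglech, are specialised makers of type I interferon. In fat, dendritic cells are a minority beside macrophages, and several of these genes are read in other cells too, such as Irf8 in macrophages and B cells, and Zbtb46 and Fscn1 in endothelium.

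The cDC1 class joins a pair of transcription factor genes to a pair of surface receptor genes, and the bases before their RefSeq starts are shown. Every start given for a window is the RefSeq start. For Batf3 the whole window lies inside the gene as annotated by GENCODE, which begins at 191097847. Irf8 has a second entry in the reference, which is described but not printed. Each line gives the 250 bases before the RefSeq start, 5′ to 3′ on the gene's strand, on build GRCm38.p6, with capitals for the letters TTCNNNGAA (the core of a STAT binding site) or GAGGAA (the core of a PU.1 site).
Irf8, chr8:120736108-120736357, + strand: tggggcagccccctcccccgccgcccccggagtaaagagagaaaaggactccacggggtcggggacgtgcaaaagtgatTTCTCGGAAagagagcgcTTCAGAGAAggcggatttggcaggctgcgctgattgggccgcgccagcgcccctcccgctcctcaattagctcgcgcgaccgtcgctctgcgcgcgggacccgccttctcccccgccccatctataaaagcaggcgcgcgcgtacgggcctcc
Batf3, chr1:191098164-191098413, + strand: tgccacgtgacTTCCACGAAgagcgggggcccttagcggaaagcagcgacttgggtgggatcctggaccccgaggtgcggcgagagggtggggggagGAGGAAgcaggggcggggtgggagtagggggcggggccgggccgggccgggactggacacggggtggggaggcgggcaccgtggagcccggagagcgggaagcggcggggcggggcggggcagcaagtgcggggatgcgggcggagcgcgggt
Clec9a, chr6:129408612-129408861, + strand: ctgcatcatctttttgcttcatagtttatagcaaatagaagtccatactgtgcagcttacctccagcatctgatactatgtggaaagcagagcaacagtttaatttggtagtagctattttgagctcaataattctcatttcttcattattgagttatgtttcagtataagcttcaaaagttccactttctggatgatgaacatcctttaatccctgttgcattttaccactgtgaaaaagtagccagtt
Xcr1, chr9:123862030-123862279, - strand: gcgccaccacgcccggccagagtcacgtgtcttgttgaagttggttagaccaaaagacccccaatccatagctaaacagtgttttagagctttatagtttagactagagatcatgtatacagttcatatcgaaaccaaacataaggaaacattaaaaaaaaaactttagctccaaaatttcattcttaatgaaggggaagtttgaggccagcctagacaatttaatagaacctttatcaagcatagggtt

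The G and C content was 67.2% in the printed Irf8 window, 54.0% in its second window, which covers bases 120738389 to 120738638, and 76.0% in the Batf3 window. It was 35.6% for Clec9a and 38.8% for Xcr1, against a median of 52.4% over all 32851 windows of the reference. Outside the cDC1 class, Fscn1 (62.4%) and Flt3 (59.2%) were above this median, and Zbtb46 (51.6%), Siglech (50.8%) and Cd209a (44.8%) below it. CG pairs numbered 29 in the printed Irf8 window, 8 in its second window, 27 for Batf3, 0 for Clec9a and 5 for Xcr1, against a median of 6. The second Irf8 window held none of the motifs searched. The printed Irf8 window held TTCNNNGAA 2 times, starting 171 and 153 bases before the start, and Batf3 held it 1 time, 239 bases before. Outside the cDC1 class, the Siglech window also held it, 123 bases before the start. This motif, which reads the same on both strands, occurs in 7.02% of all windows and was added after the sequences were read. GAGGAA occurred 153 bases before the Batf3 start and is found in 23.3% of windows when both strands are searched. No window of the 4 cDC1 genes held the element of interferon regulatory factors (GAAA, any 2 bases, GAAA, in 2.98% of windows) or TGANTCA (AP-1 and BATF factors, 6.75%). Windows were found for 9 of the 10 genes.

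The libraries held 16317865 to 20224200 estimated counts. Bbs2 was at 61.5 ± 5.3 CPM (counts per 1e6 of the TMM-scaled library) in treated libraries, 61.9 ± 9.41 CPM in untreated ones and 12.5 ± 0.267 CPM in WT (SD, n = 4 each), so counts were higher where the label says the gene is lost. A gene total leaves out where along the transcript the reads fell, and each comparison goes by the labels. Adipocyte markers (8 genes) summed to 21500 to 31700 CPM in treated libraries, 13100 to 16100 CPM in untreated ones and 19700 to 37800 CPM in WT libraries. Foxj1, a factor of ciliated epithelium, had 140 to 154 counts in treated 1 and 3 and 48 and 164 in WT 1 and 4, against at most 2 elsewhere. Epididymis markers (6 genes, none of them tested) reached a sum of 1080 CPM in WT 1, against 2.79 CPM or less in the other 11 libraries.

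All 10 genes passed the filter on low counts. In untreated libraries labelled Bbs2-/- against WT, Irf8 and Ccr7 rose and Zbtb46 fell. Of the 10 genes, 2 were called higher and 1 lower (edgeR adjusted p under 0.05). Over all 15968 tested genes 39.2% were called, 19.6% higher and 19.7% lower, so 3 of 10 was near the background. The median log2 fold change of the 10 genes was 0.58, against -0.019 over all tested genes. In treated against untreated libraries Irf8 fell and Zbtb46 rose. These were 1 gene lower and 1 higher, where 37.2% of all genes were called, 18.5% higher and 18.8% lower. The median was -0.50 for the 10 genes and 0.032 for all genes. Groups did not overlap in CPM for 5 of the 10 genes in untreated libraries against WT, where 36.7% of all tested genes had no overlap. In treated against untreated libraries this held for 3 of the 10 (Flt3, Zbtb46 and Irf8), where 39.7% of all tested genes had none. The untreated libraries are shared by both comparisons.

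**Figure D1:**
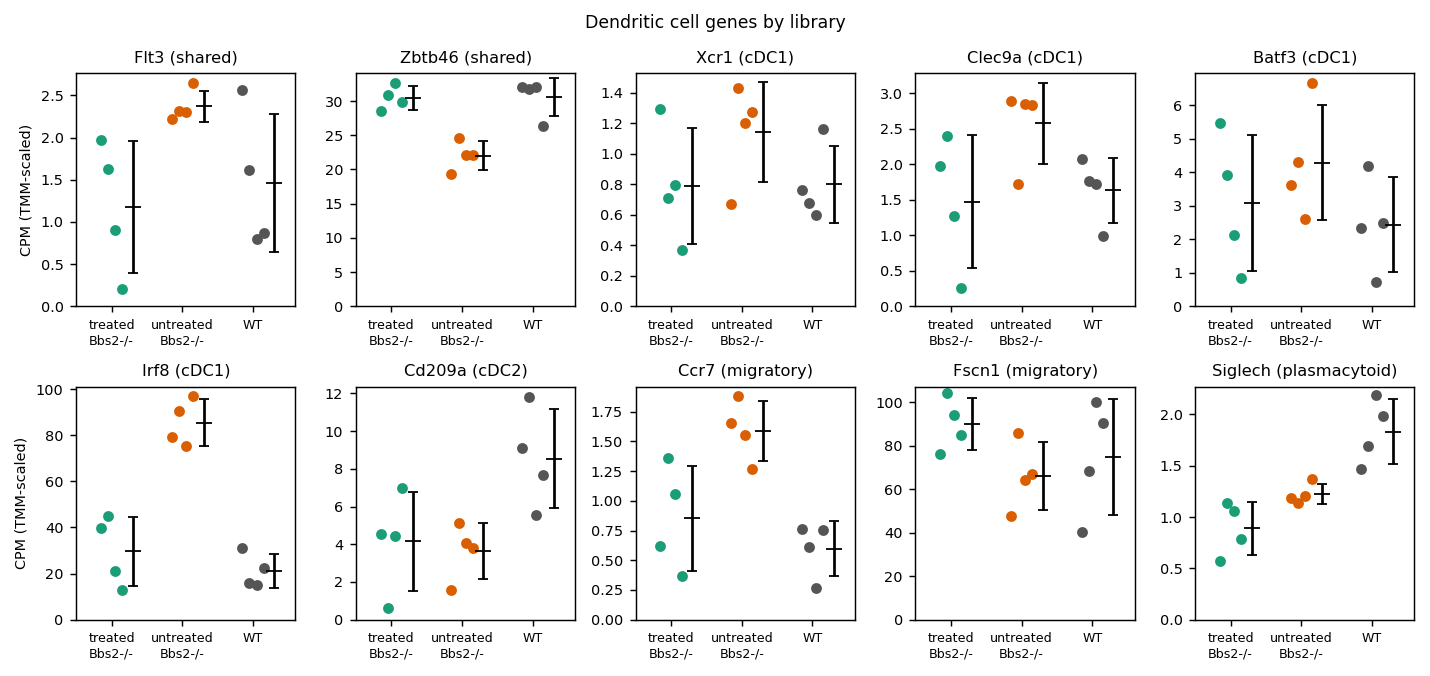
Each panel plots the CPM (TMM-scaled, linear axis from 0) of 1 gene in the 4 treated libraries labelled Bbs2-/-, the 4 untreated libraries labelled Bbs2-/- and the 4 WT libraries, with points for libraries and bars for the mean ± SD. Irf8 lies between 75.3 and 96.9 CPM in all untreated libraries and at most at 44.8 CPM in the others, while the treated and WT groups of Flt3, Batf3 and Clec9a spread widely.

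Irf8 (ENSMUSG00000041515.10, mm10 chromosome 8, 120736358 to 120756694, + strand) encodes the transcription factor that cDC1 need, and it also acts in monocytes, macrophages and B cells. Its level was 39.6, 44.8, 21.2 and 12.9 CPM in the treated libraries, 79.0, 90.6, 75.3 and 96.9 CPM in the untreated ones, and 31.0, 16.1, 14.9 and 22.6 CPM in WT. All 4 untreated libraries were above every other library, and the treated and WT libraries overlapped. Untreated libraries against WT gave a log2 fold change of 2.01 (SE 0.36, edgeR adjusted p = 0.00139), which is 4.03-fold. For treated against untreated libraries it was -1.53 (SE 0.35, edgeR adjusted p = 0.00597). A locus annotated as Gm20388, with 2031 to 4087 counts, spans Irf8 on the same strand, so a share of reads could be assigned to either, although the Irf8 counts were whole numbers in all 12 libraries. Macrophage markers moved with Irf8: the 12 listed genes summed to 782 to 1890 CPM in treated libraries, 6100 to 8760 CPM in untreated ones and 779 to 2670 CPM in WT. Their part in the Irf8 result was not tested. In bulk tissue, more cells of a type and more RNA per cell cannot be told apart.

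Batf3 (ENSMUSG00000026630.9, chromosome 1, 191097847 to 191108945, + strand), the partner factor in cDC1 that some T cells also use, did not pass the test. It stood at 5.48, 3.92, 2.12 and 0.839 CPM in treated libraries, 3.61, 4.30, 2.6 and 6.66 CPM in untreated ones, and 2.34, 4.19, 0.730 and 2.50 CPM in WT. Every pair of groups overlapped. Its log2 fold change was 0.81 for untreated against WT (95% interval -0.30 to 1.93, edgeR adjusted p = 0.28) and -0.47 for treated against untreated (-1.57 to 0.63, edgeR adjusted p = 0.543). With 1 library left out the value for treated against untreated ran from -0.88 (without treated 1) to -0.16 (without treated 4), and was -0.20 without untreated 4. That for untreated against WT was 0.51 without WT 3.

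Clec9a (ENSMUSG00000046080.17, chromosome 6, 129408862 to 129424763, + strand) encodes a receptor by which cDC1 sense dead cells. It was at 1.97, 2.40, 1.27 and 0.262 CPM in treated libraries, 2.89, 1.73, 2.85 and 2.83 CPM in untreated ones, and 2.07, 1.76, 1.72 and 0.988 CPM in WT. Untreated 1, 3 and 4 were above all other libraries and untreated 2 lay within the WT range. Its log2 fold change was 0.65 for untreated against WT (interval -0.31 to 1.61, edgeR adjusted p = 0.317) and -0.80 for treated against untreated (-1.76 to 0.16, edgeR adjusted p = 0.221). The second value was -0.45 without treated 4 (edgeR adjusted p = 0.327; 0.0957 to 0.329 over the alternatives). Clec1b overlaps its start on the same strand but had only 2 to 8 counts in a library.

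Xcr1 (ENSMUSG00000060509.4, chromosome 9, 123852315 to 123862029, - strand), the chemokine receptor that defines cDC1, rested on 7 to 25 counts in treated libraries, 13 to 29 in untreated ones and 9 to 20 in WT. At this depth counting error alone is a large part of its spread. Its mean was 0.791 ± 0.383 CPM in treated libraries, 1.14 ± 0.331 CPM in untreated ones and 0.799 ± 0.251 CPM in WT, with overlap between all groups. Its log2 fold change was 0.51 for untreated against WT (interval -0.29 to 1.31, edgeR adjusted p = 0.345) and -0.53 for treated against untreated (-1.32 to 0.26, edgeR adjusted p = 0.329). Without treated 4 the second value was -0.29, and without treated 1 it was -0.86 (edgeR adjusted p = 0.606 and 0.142; 0.125 to 0.606 over the alternatives). Of the 4 cDC1 genes Irf8 alone was called. The intervals of the other 3 cover 0 and reach to above 1 on the log2 scale for untreated against WT, so a 2-fold difference lies inside each of them.

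Flt3 (ENSMUSG00000042817.15, chromosome 5, 147330741 to 147400489, - strand) encodes the receptor that carries the growth signal for dendritic cells and their progenitors. It stood at 1.97, 1.63, 0.900 and 0.210 CPM in treated libraries, 2.22, 2.32, 2.30 and 2.64 CPM in untreated ones, and 2.56, 1.62, 0.796 and 0.872 CPM in WT. The untreated libraries were all above the treated ones, and WT 1 lay within the untreated range. Treated 4 had 4 counts of Flt3, 5 of Clec9a and 7 of Xcr1, the lowest of the 12 libraries for each. The log2 fold change of Flt3 was -1.01 for treated against untreated (interval -2.06 to 0.05, edgeR adjusted p = 0.163), and -0.66 without treated 4 (edgeR adjusted p = 0.261; 0.0562 to 0.276 over the alternatives). It was 0.69 for untreated against WT (-0.36 to 1.74, edgeR adjusted p = 0.332), and 1.11 without WT 1 (edgeR adjusted p = 0.13; 0.13 to 0.672 over the alternatives).

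Zbtb46 (ENSMUSG00000027583.13, chromosome 2, 181387762 to 181459426, - strand), a transcription factor of conventional dendritic cells that endothelium also makes, went the other way from Irf8. Its level was 28.5, 30.9, 32.7 and 29.8 CPM in treated libraries, 19.3, 24.6, 22.1 and 22.1 CPM in untreated ones, and 32.1, 31.8, 32.0 and 26.4 CPM in WT. The untreated libraries were below all 8 others. On the log2 scale it fell by 0.47 in untreated libraries against WT (SE 0.10, edgeR adjusted p = 0.0027) and rose by 0.47 in treated against untreated ones (SE 0.10, edgeR adjusted p = 0.00295), a change of 1.39-fold and 1.38-fold. The first call was lost when scaled by library size alone (-0.29, edgeR adjusted p = 0.0515) and without WT 2 and WT 3, the WT libraries with almost no Foxj1 counts (-0.40, edgeR adjusted p = 0.0515), the highest of the alternatives, which began at 8.54e-05. Markers of endothelium (6 genes) summed to 871 to 1230 CPM in treated libraries, 560 to 924 CPM in untreated ones and 633 to 971 CPM in WT, and their part in the Zbtb46 result was not tested.

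Cd209a (ENSMUSG00000031494.7, chromosome 8, 3743397 to 3748984, - strand), a C-type lectin of cDC2 and of dendritic cells derived from monocytes, had 4.55, 0.599, 4.45 and 6.98 CPM in treated libraries, 1.60, 5.14, 4.09 and 3.82 CPM in untreated ones, and 9.09, 11.8, 5.57 and 7.67 CPM in WT. All untreated libraries were below all WT libraries. Its log2 fold change for untreated against WT was -1.22 (SE 0.55) and did not pass (edgeR adjusted p = 0.0988). It passed when only these groups were fitted (edgeR adjusted p = 0.0221), without treated 2 (edgeR adjusted p = 0.0169) and on the log2 FPKM values (limma adjusted p = 0.0436), with 0.0169 to 0.247 over the alternatives. For treated against untreated libraries it was 0.18 (interval -0.90 to 1.25, edgeR adjusted p = 0.828), and its sign changed without untreated 1 (-0.07) or treated 4 (-0.20) and with limma-voom (-0.13). Cd209a has close paralogs in the same cluster, and its own counts were whole in all 12 libraries.

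The 6 paralogs with tested counts were examined after their values were seen, so their count is a description only. In untreated libraries against WT 3 of them fell (Cd209b, Cd209d and Cd209e), where 19.7% of all tested genes fell. Cd209d averaged 1.95 CPM in untreated libraries against 10 CPM in WT (log2 fold change -2.35, SE 0.39, edgeR adjusted p = 0.000761). Cd209b averaged 3.14 CPM in untreated libraries against 11.4 CPM in WT (-1.86, SE 0.48, edgeR adjusted p = 0.00967). In treated against untreated libraries Cd209d was higher (2.01, SE 0.38, edgeR adjusted p = 0.00184), and Cd209b was at 1.29 (SE 0.47, edgeR adjusted p = 0.0505). Cd209e, at under 1 CPM in each group, was at -1.99 in untreated libraries against WT (SE 0.46, edgeR adjusted p = 0.00547) and at 1.27 in treated against untreated ones (SE 0.47, edgeR adjusted p = 0.0495). Cd209c did not pass, at -0.93 in untreated libraries against WT (SE 0.35, edgeR adjusted p = 0.052) and 0.28 in treated against untreated ones. Cd209f and Cd209g had no whole count in any library, so reads may have been shared between them, and neither was called.

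Ccr7 (ENSMUSG00000037944.8, chromosome 11, 99144196 to 99155077, - strand), the receptor for the lymph node chemokines Ccl19 and Ccl21, is found on migrating dendritic cells and on naive T cells. It had 12, 25, 20 and 7 counts in treated libraries, 32, 38, 31 and 27 in untreated ones, and 14, 9, 4 and 13 in WT. In CPM the untreated libraries, at 1.27 to 1.88, were above all WT libraries, at 0.265 to 0.762. This was a log2 fold change of 1.39 (SE 0.43, edgeR adjusted p = 0.0234). The call was lost without WT 2 (edgeR adjusted p = 0.0528), WT 3 (0.062), untreated 1 (0.0509) or untreated 2 (0.058), and without WT 2 and WT 3 together (1.07, edgeR adjusted p = 0.166; 0.01 to 0.166 over the alternatives). For treated against untreated libraries the value was -0.89 (SE 0.42, edgeR adjusted p = 0.114), with overlap. T and NK cell markers (8 genes) summed to 3.93 to 11.3 CPM in treated libraries, 10.2 to 17.7 CPM in untreated ones and 3.11 to 6.21 CPM in WT, and B cell markers to 5.04 to 14.0, 6.13 to 34.3 and 3.32 to 5.71 CPM. Their part in the Ccr7 result was not tested.

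Fscn1 (ENSMUSG00000029581.14, chromosome 5, 142960343 to 142973185, + strand), an actin-bundling protein of mature dendritic cells that many non-immune cells also make, averaged 89.9 ± 12 CPM in treated libraries, 66.1 ± 15.6 CPM in untreated ones and 74.9 ± 26.6 CPM in WT. The WT libraries ran from 40.2 to 100 CPM and covered the whole untreated range of 47.6 to 85.7 CPM. Its log2 fold change was -0.18 for untreated against WT (interval -0.67 to 0.31, edgeR adjusted p = 0.606) and 0.44 for treated against untreated (-0.05 to 0.93, edgeR adjusted p = 0.187). The sign of the value for untreated against WT was not stable, at 0.02 when scaled by library size alone. Ccr7 and Fscn1, both taken as genes of migratory dendritic cells, thus had point estimates of opposite sign in both comparisons, and the difference between them was not tested.

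Siglech (ENSMUSG00000051504.18, chromosome 7, 55768178 to 55778925, + strand), a lectin of plasmacytoid dendritic cells, was at 0.569, 1.14, 1.06 and 0.787 CPM in treated libraries, 1.19, 1.14, 1.2 and 1.37 CPM in untreated ones, and 1.47, 1.69, 2.19 and 1.98 CPM in WT. Every WT library was above every library labelled Bbs2-/-. Its log2 fold change was -0.58 for untreated against WT (SE 0.28, edgeR adjusted p = 0.116) and -0.46 for treated against untreated (SE 0.28, edgeR adjusted p = 0.224). For treated against WT it was -1.04 (SE 0.28, edgeR adjusted p = 0.197). Siglech was the only one of the 10 genes below 0.05 before adjustment in that comparison and the only one without overlap, where 4.89% of all tested genes had none.

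In treated libraries labelled Bbs2-/- against WT, 0 of the 10 genes passed with edgeR, with DESeq2 or with limma-voom, and 1 was under an unadjusted p of 0.05. Only 0.257% of all tested genes were called there by edgeR, 0.175% higher and 0.0814% lower, so the count is near the background. The intervals remain wide for the low genes: Flt3 had a log2 fold change of -0.32 (-1.38 to 0.75) and Xcr1 of -0.02 (-0.83 to 0.79). For Zbtb46 the interval was narrow, at -0.19 to 0.19. Irf8 was at 0.48 (-0.21 to 1.17) and Cd209a at -1.04 (-2.12 to 0.03).

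**Figure D2:**
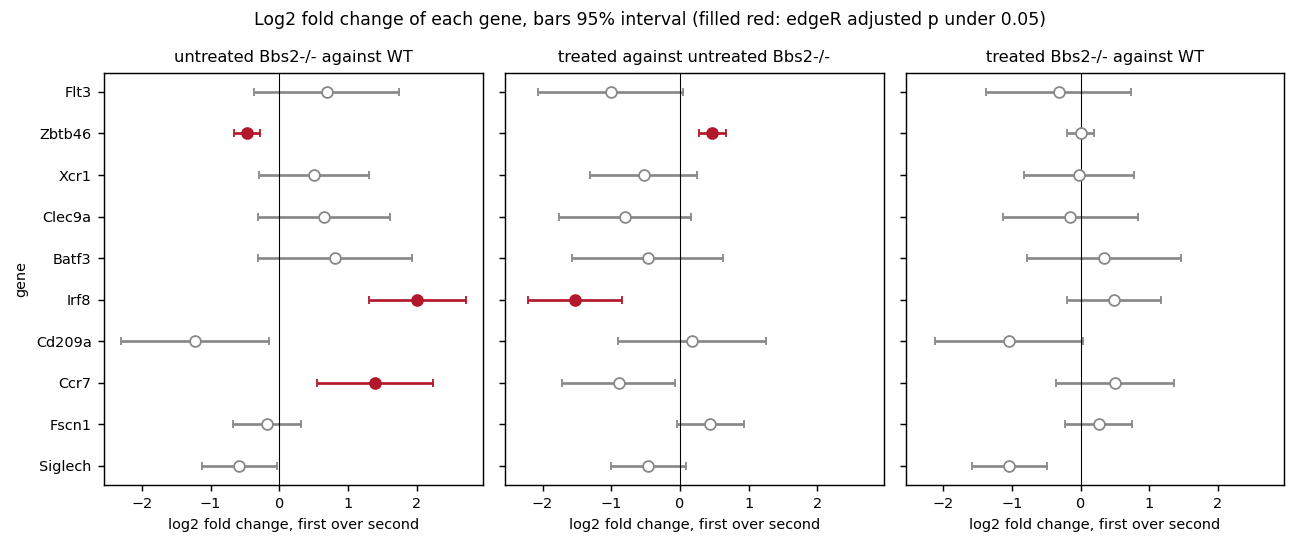
Log2 fold changes (x axis, the group named first over the group named second) of the 10 genes in 3 comparisons between libraries as labelled. Bars show the normal 95% interval, which is narrower than the F test implies, and filled red points an edgeR adjusted p under 0.05. Irf8 is at 2.01 and Ccr7 at 1.39 in untreated libraries against WT, and Irf8 at -1.53 in treated against untreated ones, while no gene is filled in treated against WT.

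Levels between genes were set side by side on the authors' log2 FPKM scale, which is per length and has no value below 0. Fscn1 was highest in treated libraries (5.45 ± 0.19) and in WT (5.17 ± 0.58, SD, n = 4). In untreated libraries Irf8 (5.02 ± 0.16) and Fscn1 (4.94 ± 0.34) did not differ beyond their spread. In WT Irf8 (3.16 ± 0.44), Zbtb46 (3.03 ± 0.09) and Cd209a (2.88 ± 0.36) came next and differed from each other by less than the larger SD of each pair, followed by Batf3 (2.00 ± 0.73). Siglech (0.95 ± 0.13) headed the low genes in WT, with Clec9a, Flt3, Ccr7 and Xcr1 between 0.63 and 0.26. In untreated libraries Ccr7 (0.88 ± 0.11), Clec9a (0.86 ± 0.15) and Flt3 (0.75 ± 0.05) were close together above Siglech (0.67 ± 0.04), and Xcr1 (0.34 ± 0.09) was lowest.

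Across the 12 libraries the genes did not all follow a common course. Pearson correlations of log2 CPM are given as a description, since group, depth and tissue makeup are shared by the points. Flt3, Xcr1, Clec9a, Batf3, Irf8 and Ccr7 were positively correlated in every pair (r = 0.52 to 0.91). With the leukocyte gene Ptprc these genes were at 0.576 (Xcr1) to 0.932 (Irf8), and the other members at -0.777 (Zbtb46) to -0.078 (Siglech). Flt3 and Clec9a ran together (r = 0.91), as did Irf8 and Ccr7 (0.86), whereas Irf8 and Zbtb46 ran opposite (-0.79). Siglech was between -0.24 and 0.24 with every other member. Over all tested genes, Irf8 was most like Ccl2 and Tubb2a (0.984 each), Ccr7 most like Gimap1os (0.975) and Gk (0.942), and Zbtb46 most like Zfp2 (0.954) and Src (0.947). Clec9a was most like M1ap (0.938) and then Flt3 (0.914), Flt3 most like Gpr141b (0.932) and Col6a3 (0.92), and Xcr1 most like Klra2 (0.932) and Prss23 (0.879). Batf3 was most like Napsa (0.918) and Pla2g5 (0.899), Fscn1 like Rdh5 (0.949) and Exoc3l (0.937), Cd209a like Cyp2s1 (0.867) and Tgfb3 (0.865), and Siglech like Tspyl5 (0.868) and Clmp (0.854).

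Ptprc, which encodes CD45 on all leukocytes, was at 22.1 to 56.4 CPM in treated libraries, 223 to 248 CPM in untreated ones and 25.9 to 92.8 CPM in WT (log2 fold change of untreated against WT 2.18, SE 0.38, edgeR adjusted p = 0.0013). In treated libraries against WT it was at -0.18 (SE 0.37, edgeR adjusted p = 0.922). Set per 100 CPM of Ptprc, Flt3 stood at 0.95 to 3.57 in treated libraries, 0.936 to 1.19 in untreated ones and 2.59 to 3.07 in WT. Xcr1 per 100 CPM of Ptprc was 1.26 to 2.35 in treated libraries, 0.283 to 0.578 in untreated ones and 0.821 to 3.45 in WT. Irf8 stood at 43.7 to 79.4, 33.4 to 43.5 and 30.5 to 66.9 in the same order of groups, with untreated libraries inside the WT range. On this measure 8 of the 10 genes were lower in untreated libraries than in WT without overlap, and Batf3 and Irf8 overlapped. That share is near the background, since 85.2% of all tested genes had no overlap, 84.8% lower and 0.42% higher. In treated against untreated libraries 7 of the 10 were higher without overlap, against 89.3% of all tested genes (90.1% had no overlap and 0.789% were lower), and Flt3, Clec9a and Cd209a overlapped. In treated libraries against WT 0 of the 10 had no overlap, against 0.576% of all tested genes, 0.351% higher and 0.225% lower.

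**Figure D3:**
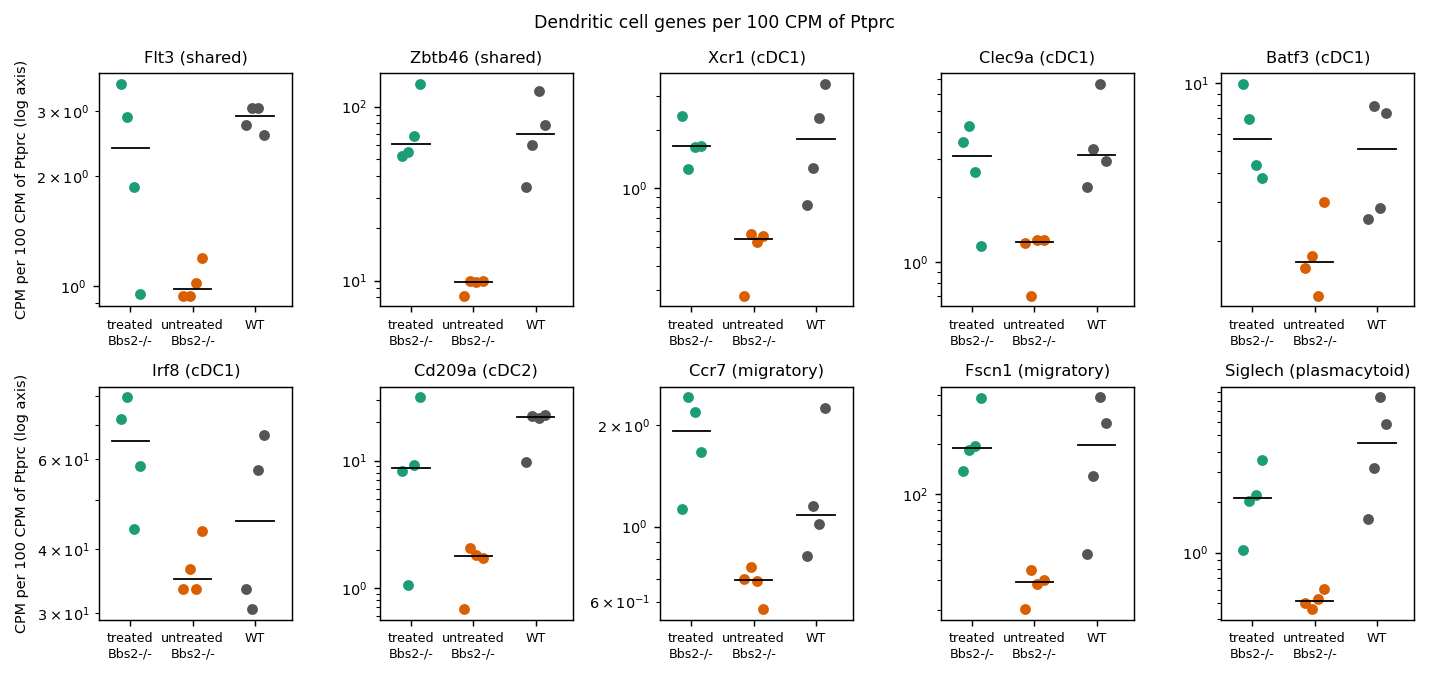
Each panel plots the CPM of 1 gene per 100 CPM of Ptprc (log axis) in the 4 treated and 4 untreated libraries labelled Bbs2-/- and the 4 WT libraries, with a line at the median. Irf8 in untreated libraries (33.4 to 43.5) lies within the WT range (30.5 to 66.9), and Flt3 (0.936 to 1.19) lies below it (2.59 to 3.07).

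Further dendritic cell genes were counted from hand-written lists for each class, with the shares of all tested genes called beside them. These lists, and the marker lists of other cells, were chosen with earlier results of these data known. Their counts are therefore a description only. Of 12 other cDC1 genes 5 rose and 2 fell in untreated libraries against WT (median log2 fold change 0.96), where 19.6% of all tested genes rose and 19.7% fell. Cadm1, an adhesion molecule of cDC1, averaged 126 ± 17.6 CPM in untreated libraries and 16 ± 15.9 CPM in WT (log2 fold change 2.97, SE 0.54, edgeR adjusted p = 0.00162). Nfil3, a factor in cDC1 development, was at 1.61 (SE 0.19) and Wdfy4, needed for cross-presentation, at 1.72 (SE 0.46). Itgae, which encodes CD103 of tissue cDC1, fell, with 2.44 ± 0.305 CPM in untreated libraries and 4.15 ± 0.773 CPM in WT (-0.76, SE 0.19, edgeR adjusted p = 0.00797). The other gene that fell was Naaa, outside the naming rule (-0.48, SE 0.15, edgeR adjusted p = 0.0215). With the inhibitor 5 of these 12 genes fell and 1 rose against untreated libraries, where 18.8% of all tested genes fell and 18.5% rose. Cadm1 fell to 10.7 ± 3.42 CPM in treated libraries (-3.56, SE 0.56), and the 1 that rose was Itgae (1.0, SE 0.19, edgeR adjusted p = 0.00185).

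Of 12 other cDC2 genes 11 were tested, and 5 rose and 1 fell in untreated libraries against WT (median 0.70), against 19.6% and 19.7% of all tested genes. Sirpa, a signalling receptor of cDC2 and macrophages, was at 616 ± 38.1 CPM in untreated libraries and 128 ± 74.4 CPM in WT (log2 fold change 2.27, SE 0.32, edgeR adjusted p = 0.000328). The cDC2 factor gene Irf4 was at 0.70 (SE 0.21) and the lymphotoxin gene Ltb at 1.16 (SE 0.36). Mgl2, which encodes the lectin CD301b of cDC2 and resident macrophages, fell, with 16.8 ± 7.39 CPM in untreated libraries and 45.2 ± 3.74 CPM in WT (-1.43, SE 0.31, edgeR adjusted p = 0.00366). With the inhibitor 4 of the 11 fell and 1 rose against untreated libraries, near the 37.2% of all tested genes called in either direction, and Mgl2 was the one that rose (1.27, SE 0.31, edgeR adjusted p = 0.00726).

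Of 14 other genes of migratory or mature dendritic cells 12 were tested, and 7 rose and 0 fell in untreated libraries against WT (median 0.94), against 19.6% and 19.7% of all tested genes. Cd83, a maturation marker, was at 95.9 ± 19.2 CPM in untreated libraries and 15.9 ± 7.21 CPM in WT (2.59, SE 0.36, edgeR adjusted p = 0.000363). The co-stimulatory genes Cd40 (2.00, SE 0.43) and Cd86 (1.53, SE 0.33) and the amino acid oxidase gene Il4i1 (1.72, SE 0.34) also rose, and macrophages and B cells express these genes as well. With the inhibitor 6 fell and 1 rose, against 18.8% and 18.5% of all tested genes, with Cd83 at 13.2 ± 4.42 CPM in treated libraries (-2.86, SE 0.37). The gene that rose was Cd274, which encodes PD-L1 (0.81, SE 0.19, edgeR adjusted p = 0.00537), named because it was the only one.

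Of 14 other plasmacytoid genes 11 were tested, and 6 rose and 0 fell in untreated libraries against WT (median 1.53), against 19.6% and 19.7% of all tested genes, while the value of Siglech was -0.58 and not called. The inhibitory receptor gene Lair1 was at 66.1 ± 15 CPM in untreated libraries and 4.69 ± 2.8 CPM in WT (3.80, SE 0.46, edgeR adjusted p = 0.000186). Tlr7, a sensor of single-stranded RNA that macrophages share, was at 2.69 (SE 0.50). The transcription factor gene Spib was at 2.29 (SE 0.50) and Cox6a2 at 3.18 (SE 0.71). Both were low, with Spib at 2.11 CPM in untreated libraries and 0.422 CPM in WT, and Cox6a2 at 1.8 and 0.188 CPM. Cox6a2 was also low in treated libraries (0.146 CPM). It reached the filter's 0.536 CPM only in untreated libraries, so its calls in both comparisons were favoured by that selection. The 5 genes not called, outside the naming rule, were Ly6d (1.53), Pacsin1 (1.25), Bst2 (0.31), Tcf4 (0.16) and Irf7 (-0.24). With the inhibitor 8 of the 11 fell and 0 rose against untreated libraries, against 18.8% and 18.5% of all tested genes, with Lair1 at 5.08 ± 2.58 CPM in treated libraries (-3.70, SE 0.45).

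Of 14 ligands, growth factors and their receptors 10 were tested, and 4 rose and 0 fell in untreated libraries against WT (median 0.49). The total of 4 in 10 is near the 39.2% of all tested genes called. These were Csf1, the growth factor of macrophages (0.86, SE 0.14), the GM-CSF receptor subunits Csf2ra (2.00, SE 0.27) and Csf2rb (0.97, SE 0.27), and Csf2rb2, the beta chain of the mouse IL-3 receptor (1.73, SE 0.37). Csf2rb and Csf2rb2 are close copies, so reads could be split between them. Flt3l, the ligand of Flt3, was at 12.8 ± 1.1 CPM in untreated libraries and 13.4 ± 2.71 CPM in WT (-0.06, SE 0.14, edgeR adjusted p = 0.764), and was outside the naming rule. With the inhibitor 3 of the 10 fell and 0 rose, against 37.2% of all tested genes called, among them Csf2ra (-1.97, SE 0.27). In treated libraries against WT, Cd274 was the only gene of these 5 lists to pass (1.04, SE 0.19, edgeR adjusted p = 0.0485). Of all tested genes 0.257% were called there. The value of Cd274 lay close to the threshold, and alternative settings were not examined for genes of the lists.

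**Figure D4:**
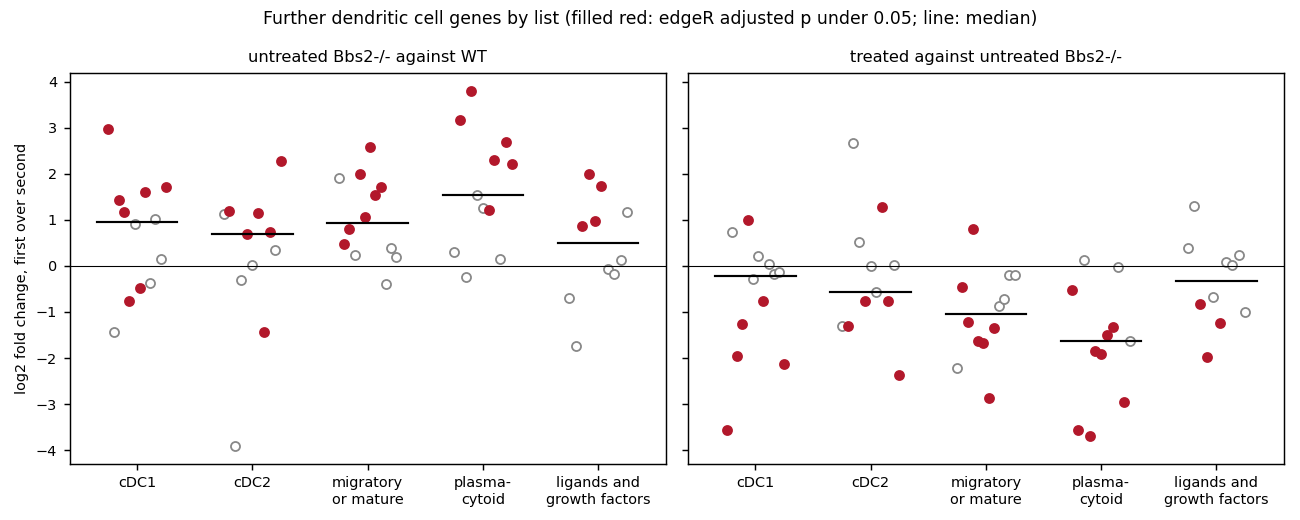
Log2 fold changes (y axis, the group named first over the group named second) of the tested genes in 5 lists, for untreated libraries labelled Bbs2-/- against WT and treated against untreated libraries labelled Bbs2-/-, with filled red points for an edgeR adjusted p under 0.05 and a line at each median. The plasmacytoid list has the median farthest from 0, at 1.53 in untreated libraries against WT and -1.62 in treated against untreated ones.

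Markers of the other cells of the tissue stood beside these counts as follows, in untreated libraries against WT. Of all tested genes 19.6% rose and 19.7% fell there. Of 12 macrophage genes 10 rose and 0 fell (median log2 fold change 2.55), with C1qa at 2.80 (SE 0.25) and C1qc at 2.87 (SE 0.29). Of 8 monocyte genes 5 rose (median 1.10; Spn 2.22, Treml4 2.15), of 7 tested B cell genes 5 rose (2.04; Cd79b 2.25, Ms4a1 2.89), and of 8 T and NK cell genes 3 rose (1.5; Klrb1c 1.93, Trac 1.92). Klrb1c, at 0.262 CPM in WT, 0.186 CPM in treated libraries and 1.02 CPM in untreated ones, passed the filter only through the untreated libraries. Of 3 tested lymph node genes Cxcl13 rose (5.29, SE 1.47) and Ccl21a did not pass (-1.74, SE 1.2). Cxcl13 averaged 16.8 ± 20.3 CPM in untreated libraries and 0.417 ± 0.471 CPM in WT, with an SD above the mean in each. The lymph node list summed to 47.0 CPM in untreated 4 and to 4.54 to 13.2 CPM in the other untreated libraries. Of 6 endothelial genes Vwf rose (0.51, SE 0.15), Kdr was at -0.54 (SE 0.22, edgeR adjusted p = 0.0684), and the median was -0.01. Both tested neutrophil genes rose (S100a8 1.5, S100a9 1.49). Of 8 adipocyte genes 6 fell (median -1.16; Retn -3.76, Slc2a4 -1.64), and of 6 genes of ciliated epithelium 3 fell, with Rsph1 at -2.66 (SE 0.93) and Foxj1 among them. With the inhibitor 11 of 12 macrophage genes fell against untreated libraries (median -2.67), where 18.8% of all tested genes fell and 18.5% rose. So did 2 of 8 monocyte, 3 of 7 B cell, 3 of 8 T and NK cell and 1 of 2 neutrophil genes. In that comparison 7 of 8 adipocyte genes rose (median 1.13). With them rose 3 of 6 endothelial genes, Kdr among them (1.0, SE 0.22), and 2 of 6 genes of ciliated epithelium. How far these cells account for the dendritic cell lists was not tested.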

How the data were processed

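Polyadenylated RNA of 12 adipose libraries was sequenced after TruSeq Stranded mRNA preparation, per the labels' protocols. The authors deposited estimated counts per gene, unscaled, of which 92.96 to 94.17% were whole within 1e-06 in a library, and log2 FPKM values set to a common upper quartile of 3.96. Per the submitters' processing notes the reads were placed on mm10. How reads were aligned and counted is not given in the sources used here. Symbols and coordinates came from GENCODE on the same build (52207 of 53431 identifiers matched), and promoter windows from RefSeq GRCm38.p6.

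Estimated counts were rounded and fitted with edgeR 4.0.16 in R 4.3.3 (TMM, filterByExpr by group, robust quasi-likelihood test, group as the only term, all 12 libraries), with Benjamini-Hochberg adjustment over 15968 genes and a threshold of 0.05. The SE is the log2 fold change over the root of the F value, and 95% intervals are normal intervals from it. They are narrower than the F test implies. For Siglech in untreated libraries against WT the interval was -1.12 to -0.04, at an unadjusted edgeR p of 0.0579. CPM values are scaled by TMM, and log2 CPM has a prior count of 2. The procedure was tested on simulated data with a common biological coefficient of variation of 0.29 for all genes. Changes were placed only in genes above a cut on level that Xcr1 did not reach. The simulation therefore does not speak for the lowest genes or for those with a larger spread. Libraries of a group differed by a chi-square of at least 18.2 per degree of freedom and were all kept. The members and lists were chosen with earlier results of these data known.

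Named are the 10 genes, up to 4 genes of each further dendritic cell list and up to 2 of each marker list with the smallest p for untreated libraries against WT, and the 2 genes most correlated with each member. Alternatives were DESeq2 1.42.0, its size factors, scaling by library size alone, 2 other filters, fits limited to the groups in a comparison, limma-voom and limma-trend (3.58.1) on log2 FPKM, a replicate block, and libraries left out.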

Additional observations from a re-analysis of the deposited data

Results flagged for a closer look

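In groups of 4 libraries, a library was picked out when its gap to the nearest other, over the range of the group, exceeded Dixon's 95% critical value for 4 samples. Of 30 groups examined (10 genes in 3 groups) 2 had such a library, and chance picks out about 1 in 20. Clec9a was at 1.73 CPM in untreated 2, labelled Bbs2-/-, below the other untreated libraries at 2.83 to 2.89 CPM. Zbtb46 was at 26.4 CPM in WT 4, below the other WT libraries at 31.8 to 32.1 CPM.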

How the results depend on the processing

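Over 23 alternatives (22 for Xcr1), 650 of 687 values for single genes kept their sign and their side of the threshold, 7 were no longer past it, 3 newly passed and 27 changed sign. Irf8 passed in both comparisons with untreated libraries under every alternative run (edgeR, DESeq2 or limma adjusted p at most 0.0283 and 0.0285), and so did Zbtb46 in treated against untreated libraries (at most 0.0286). In untreated libraries labelled Bbs2-/- against WT, the 2 genes called higher became 1 without WT 2 and WT 3. The 1 called lower became 0 without WT 2 and WT 3 and with library size alone, and 2 in a fit of these groups only and with the log2 FPKM values. Leaving out 1 library gave 1 to 2 genes higher and 1 to 2 lower. The cause of these shifts was not tested. Fits with libraries left out also had fewer samples. Library size alone moved the median of all genes in this comparison to 0.164 from -0.019, with 4460 higher and 2005 lower calls against 3124 and 3139; in treated against untreated libraries it gave 2095 higher and 3802 lower calls against 2947 and 3000.

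All sign changes were in values not past the threshold. In untreated libraries against WT, Fscn1 was at 0.02 with library size alone and 0.03 without WT 2 and WT 3. In treated against untreated libraries, Cd209a was at -0.13 with limma-voom and between -0.20 and 0.54 with 1 library left out. In treated libraries against WT, Zbtb46 was at 0.05 with library size alone, 0.02 with no filter, 0.00329 in a fit of these groups only and 0.08 without WT 2 and WT 3. Xcr1 was at 0.04 with library size alone and 0.01 with no filter, and Batf3 at -0.04 without the libraries with Foxj1 counts. With 1 library left out the ranges in that comparison were -0.66 to 0.10 for Flt3, -0.07 to 0.04 for Zbtb46, -0.34 to 0.22 for Xcr1, -0.48 to 0.20 for Clec9a and -0.07 to 0.73 for Batf3.

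The labels do not say whether replicate numbers pair the samples. Of 12 same-numbered pairs 4 had a correlation of deviations over 0.1 (-0.15 to 0.31). Of 12 libraries 5 correlated best with their own number. The share expected without pairing was not worked out, so these values cannot decide whether samples were paired. With the replicate block, 2 genes were called higher and 1 lower in untreated libraries against WT, and 1 and 1 in treated against untreated ones. In treated libraries against WT the all-gene count of 41 became 9 with the block (7 higher, 2 lower), 174 higher and 108 lower with DESeq2 and 2 in a fit of these groups only. Counts of 4 to 60 per library limit Flt3, Xcr1, Clec9a, Ccr7 and Siglech.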
